A study of Drosophila melanogaster with 36 samples.

Results

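The assembled Drosophila melanogaster genome of the dm3 build carries short scaffolds of heterochromatic sequence that were assigned to a chromosome arm but not joined to it. The 2 described here are chr2LHet and chrXHet. Their members are the 1 kb bins that overlap no exon and have a mappability index above 0, the index being the share of a bin to which reads can be placed uniquely. On 2LHet 261 of 369 bins were members, with 7 exon bins and 101 unmappable bins left out. On XHet 113 of 204 bins were members, with 39 exon bins and 52 unmappable bins left out. Together they were 374 of the 139714 bins of the deposited table.

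All libraries came from ovaries of adult females 4 to 6 days old, kept at 25 °C. The ovaries had rhino, deadlock, cutoff or piwi knocked down in the germline, or carried the control germline knockdown. For the ChIP input, to which values over input refer, the labels name no knockdown. Ovaries hold germline and somatic cells, which these libraries do not separate. Chromatin immunoprecipitation (ChIP) was done for Rhino in all 4 knockdowns and the control, for Deadlock and Cutoff in their own knockdown and the control, for histone H3 trimethylated on lysine 9 (H3K9me3) in rhino knockdown, piwi knockdown and control, and for RNA polymerase II (Pol II) in rhino knockdown and control. Small RNAs of 18 to 29 nt and ribosome-depleted RNA (RNA-seq) were sequenced in rhino, deadlock and cutoff knockdown and control, and nascent RNA (GRO-seq, a nuclear run-on) in rhino knockdown and control. The last library holds small RNAs pulled down with Piwi from piwi germline knockdown ovaries, which the labels take as the somatic piRNAs.

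PIWI-interacting RNAs (piRNAs) are small RNAs that guide Piwi-family proteins to transposons in the gonad, and are cut from long transcripts of clusters that lie mostly in heterochromatin. Rhino is a germline relative of heterochromatin protein 1 whose chromodomain binds H3K9me3, and it assembles with Deadlock and Cutoff on clusters that are transcribed from both strands. Piwi itself directs H3K9me3 to transposon copies, and in the somatic cells of the ovary it is loaded from clusters that do not use Rhino.

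The value of a bin is its read count scaled to the library's total (RPM), divided by the mappability index, plus an offset of 0.1, or 0.01 for RNA-seq. A change is the difference of log2(value + 1), which understates the change of low bins. Bins whose input was under 25% of the table's median input of 8.71 were set aside, which kept 207 members of 2LHet and 97 of XHet, 304 in all. XHet bins were easier to read than 2LHet bins. The mappability index had a median of 0.246 on 2LHet and 0.625 on XHet, and 72 kept bins of 2LHet and 65 of XHet reached 0.5. Scaling totals ranged between 3872000 reads in the Rhino ChIP of deadlock knockdown and 169660000 reads in the RNA-seq of cutoff knockdown. Intervals of medians are taken over bins and intervals of ratios cover counting error only, since bins are not replicates. Apart from RNA-seq, each comparison set 1 library or 1 average of 2 libraries against another, so no test across replicates was possible. The bins carry no gene names, and the depletion of the targeted transcripts was not checked here.

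Both scaffolds carried Rhino and H3K9me3 in control ovaries, 2LHet more than XHet. Rhino stood above input by a median log2 of 1.84 on 2LHet (95% interval 1.69 to 1.94) and 1.28 on XHet (1.07 to 1.49). The 2LHet median lay beside those of the larger scaffolds 3LHet (1.84) and 3RHet (1.89), the XHet median below them, and the non-exon bins of the euchromatic arms had a median of -0.21. Rhino was higher than input by at least 2-fold in 88.9% of 2LHet bins and 63.9% of XHet bins, where 9.37% of all bins of the table were. H3K9me3 stood above input by a median of 2.37 on 2LHet (2.30 to 2.44) and 1.49 on XHet (1.35 to 1.62), against 2.67 on 3LHet, 2.64 on 3RHet and -0.82 on the arms. It was higher by at least 2-fold in 98.6% of 2LHet bins and 82.5% of XHet bins, with 14.4% of the table as background.

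**Figure D1:**
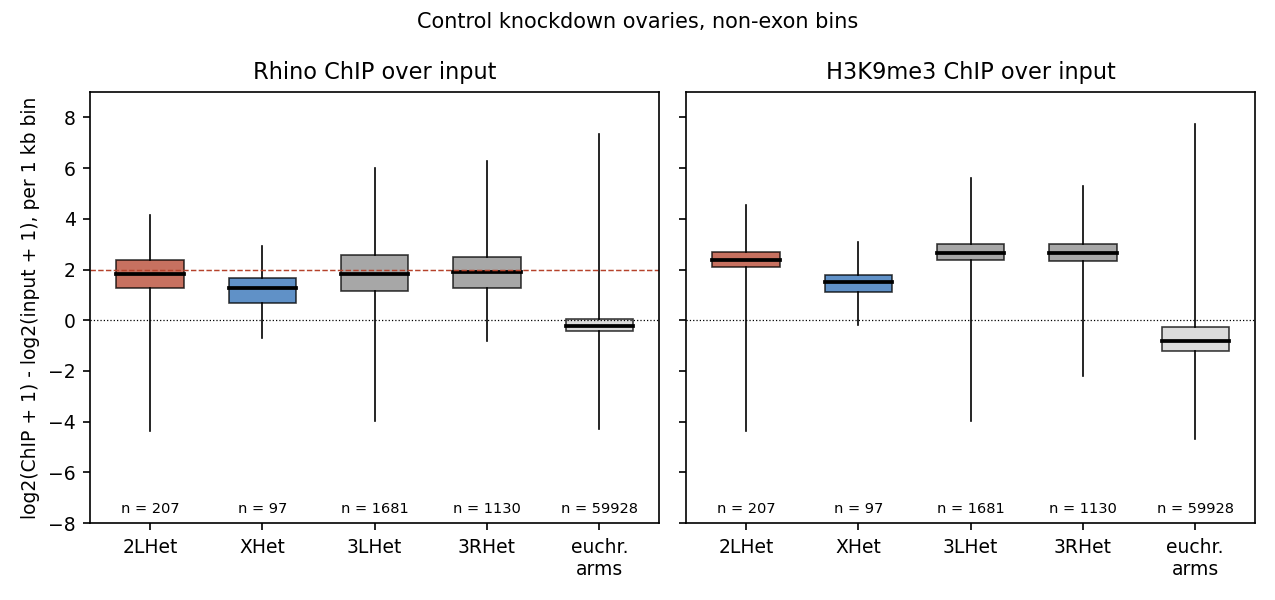
Rhino ChIP (left) and H3K9me3 ChIP (right) over input in control knockdown ovaries, as log2(ChIP + 1) minus log2(input + 1) per kept 1 kb non-exon bin (y axis), for 2LHet, XHet, 3LHet, 3RHet and the euchromatic arms (x axis). Thick lines are medians, boxes the quartiles, thin lines the full range, and the dashed line marks 4-fold. The XHet medians of 1.28 and 1.49 lie below the 2LHet medians of 1.84 and 2.37, and both scaffolds lie above the arms.

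A bin was called Rhino-bound where control Rhino reached 4-fold over input. This held for 88 of 207 bins on 2LHet (42.5%) and 18 of 97 on XHet (18.6%), where 3.35% of all bins of the table were bound. The shares were 44.1% on 3LHet, 44.8% on 3RHet and 0.858% on the arms. The authors' own Rhino peaks covered 21 kept bins of 2LHet and 3 of XHet, and their H3K9me3 peaks covered 65 and 18. Rhino over input was higher where mappability was lower, with a Spearman coefficient of -0.40 over 207 bins of 2LHet and -0.48 over 97 bins of XHet, and 11 and 5 of the bound bins had an index of at least 0.5. The part that mappability has in the calls was not tested.

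Bound bins lay in domains, runs that held 5 or more bound bins and were broken by no gap above 3 kb. There were 5 on 2LHet, at chr2LHet 40001 to 62000, 121001 to 145000, 158001 to 165000, 310001 to 325000 and 345001 to 366000, with 17, 19, 6, 12 and 13 bound bins. XHet had 1, at chrXHet 176001 to 188000, with 10 bound bins. The 2LHet domain at 40001 to 62000 had the most Rhino, with a mean signal of 63.2 in control ovaries. On XHet the domain lay near the scaffold's end, with a mean of 47.0.

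Single bins showed how high Rhino could stand. The top bin of 2LHet, at 362001, had a control Rhino signal of 99.9 over an input of 4.63, and that of 46001 had 140 over 8.28. On XHet the bin with the most Rhino over input that could be read well was 178001, with 41.2 over 4.97 at a mappability index of 0.385. The 2 XHet bins ranked above it, 32001 and 88001, had indices of 0.043 and 0.052, so that few reads stood behind them.

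Rhino was lower on both scaffolds in all 4 knockdowns, and least so in piwi knockdown. The lowest medians were those of deadlock knockdown, but their intervals overlapped those of rhino knockdown on both scaffolds. The deadlock knockdown library also had the lowest scaling total, 3872000 reads. The median change was -1.85 on 2LHet (95% interval -2.07 to -1.59) and -1.47 on XHet (-1.81 to -1.15) in deadlock knockdown. In rhino knockdown it was -1.52 on 2LHet (-1.84 to -1.25) and -1.22 on XHet (-1.53 to -0.87). In cutoff knockdown it was -0.88 (-1.06 to -0.75) and -0.87 (-0.97 to -0.60). In piwi knockdown it was -0.56 (-0.63 to -0.46) and -0.43 (-0.52 to -0.30). In all 4 knockdowns the intervals of 2LHet and XHet overlapped. On the arms the 4 medians were 0.01, 0.04, 0.19 and -0.09, in the order deadlock, rhino, cutoff and piwi. In the same order they were -1.82, -1.74, -0.87 and -0.48 on 3LHet and -1.57, -1.42, -0.76 and -0.27 on 3RHet.

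Shares of bins lower by at least 2-fold gave the same order, while bound calls on XHet were fewest in cutoff knockdown. Rhino was lower by at least 2-fold in 77.8% of 2LHet bins and 66.0% of XHet bins in deadlock knockdown, where 18.5% of the table was. In rhino knockdown the shares were 64.7% and 57.7%, with 15.9% of the table. In cutoff knockdown they were 45.9% and 38.1%, with 4.41% of the table. In piwi knockdown they were 15.9% and 17.5%, with 1.85% of the table. Of the Rhino calls, 13 bins of 2LHet and 4 of XHet were bound in rhino knockdown, 9 and 1 in deadlock knockdown, 18 and 0 in cutoff knockdown, and 34 and 5 in piwi knockdown, against 88 and 18 in control. The bound share of the table was 0.61%, 0.616%, 0.83% and 2.62% in these knockdowns, against 3.35% in control.

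**Figure D2:**
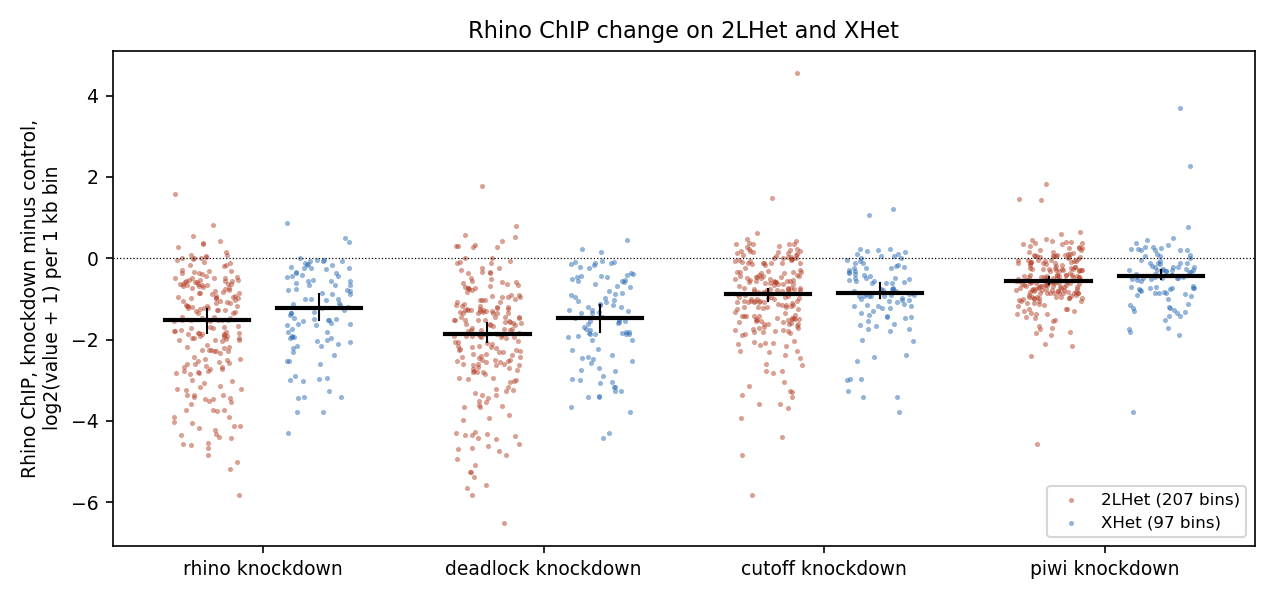
Change in Rhino ChIP, knockdown minus control on the log2(value + 1) scale (y axis), for each kept bin of 2LHet and XHet in the 4 knockdowns (x axis). Horizontal bars are medians with their 95% interval over bins. The medians run between -1.85 and -0.43 and all lie below 0.

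The order of the knockdowns varied among the domains. By mean Rhino signal, deadlock knockdown was lowest in 4 of the 5 domains of 2LHet. At chr2LHet 40001 to 62000 the mean Rhino signal was 11.9 in rhino, 12.3 in deadlock, 13.1 in cutoff and 32.5 in piwi knockdown, against 63.2 in control. At chrXHet 176001 to 188000 it was 18.9, 14.4, 11.1 and 32.1 in the same knockdowns, against 47.0 in control. Rhino knockdown was thus lowest in the 2LHet domain at 40001 and cutoff knockdown in the XHet domain. At chr2LHet 310001 to 325000 the median change per bin was -1.94 in rhino and -1.93 in deadlock knockdown. These domains were chosen by high control Rhino, and the change is measured against the same control libraries, so their size of loss is a description.

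Deadlock and Cutoff, the partners of Rhino, were not clearly above their own knockdowns on either scaffold as a whole: Deadlock was near its knockdown and Cutoff below it. Control Deadlock over the Deadlock ChIP of deadlock knockdown had a median of -0.11 on 2LHet (-0.24 to -0.01) and 0.08 on XHet (-0.02 to 0.22), and the ratios of summed reads were 1.11 (1.07 to 1.15) and 1.09 (1.04 to 1.14). Control Cutoff over the Cutoff ChIP of cutoff knockdown had medians of -0.28 and -0.16, and ratios of 0.862 and 0.866. The 2LHet domain at 40001 to 62000 stood out among the domains. Its mean Deadlock signal was 9.94 in deadlock knockdown and 22.8 in control, and its mean Cutoff signal was 13.0 in cutoff knockdown and 20.9 in control. Bin 46001, inside it, had a Deadlock signal of 16.7 in deadlock knockdown and 63.8 in control, and a Cutoff signal of 7.85 in cutoff knockdown and 42.2 in control. In the XHet domain Deadlock was 11.6 in deadlock knockdown and 20.3 in control, while Cutoff was 13.9 in cutoff knockdown and 16.3 in control.

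H3K9me3 moved little over the scaffolds as wholes. In rhino knockdown the median change was -0.11 on 2LHet (-0.20 to 0.01) and 0.02 on XHet (-0.07 to 0.17). In piwi knockdown it was 0.03 on 2LHet (-0.02 to 0.07) and 0.22 on XHet (0.16 to 0.30), with 76 of 97 XHet bins higher, where 56.9% of the table was higher. The rise was not particular to XHet. On 3LHet 1332 of 1681 bins were higher, with a median of 0.27, and on 3RHet 897 of 1130, with a median of 0.43. On 2LHet 112 of 207 were higher. In rhino knockdown 11 bins of 2LHet (5.31%) and 1 of XHet (1.03%) were higher by at least 2-fold, with 3.75% of the table, and 6 of 2LHet (2.90%) and 5 of XHet (5.15%) were lower, with 1.51% of the table.

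Small medians hid runs of neighbouring bins that went opposite ways in rhino knockdown. The runs, selected with their values in view, hold 5 or more bins at least 1.5-fold apart in 1 direction and no gap above 3 kb. At chr2LHet 41001 to 51000, inside the strongest Rhino domain, mean H3K9me3 was 99.3 in rhino knockdown and 50.6 in piwi knockdown, against 55.2 in control. At chr2LHet 237001 to 252000 it was 45.9 in rhino knockdown and 27.9 in piwi knockdown, against 25.9 in control. It was lower at chr2LHet 122001 to 131000, with 34.0 in rhino knockdown and 46.8 in piwi knockdown against 56.9 in control. At the start of XHet, 1 to 11000, it was 7.80 in rhino knockdown and 16.3 in piwi knockdown, against 16.9 in control. Mappability was at most 0.08 in the 122001 run of 2LHet and at least 0.374 in the XHet run.

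Small RNAs were lower by more than 10-fold on both scaffolds in each of the 3 knockdowns of the complex. The median signal of a 2LHet bin was 1.69 in rhino, 1.42 in deadlock and 1.28 in cutoff knockdown, against 65.9 in control. The median XHet bin had 0.405, 0.543 and 0.430 in the same knockdowns, against 24.3 in control. The 3 knockdown medians lay close together and far below control on both scaffolds.

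Summed over kept bins, the fold loss was alike on both scaffolds. Small RNA reads, scaled to the library totals, were 12.8-fold lower in rhino knockdown on 2LHet (12.3 to 13.3) and 13.2-fold lower on XHet (12.2 to 14.2). In deadlock knockdown they were 12.3-fold lower (11.8 to 12.9) and 13.8-fold lower (12.7 to 14.9). In cutoff knockdown they were 14.3-fold lower (13.7 to 14.8) and 13.8-fold lower (12.9 to 14.8). The median change per bin was larger on 2LHet, at -4.38, -4.36 and -4.46 in rhino, deadlock and cutoff knockdown, than on XHet, at -3.49, -3.48 and -3.66. On the arms all 3 medians were 0.

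Of the library totals, 2LHet members took 0.0551% in rhino, 0.0571% in deadlock and 0.0494% in cutoff knockdown, against 0.711% in control. XHet members took 0.0157%, 0.0151% and 0.0150%, against 0.207% in control. On 2LHet the signal was lower by at least 4-fold in 84.1%, 83.1% and 85.5% of bins in rhino, deadlock and cutoff knockdown, and on XHet in 73.2%, 69.1% and 73.2%, where 8.13%, 8.35% and 8.26% of the table were.

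**Figure D3:**
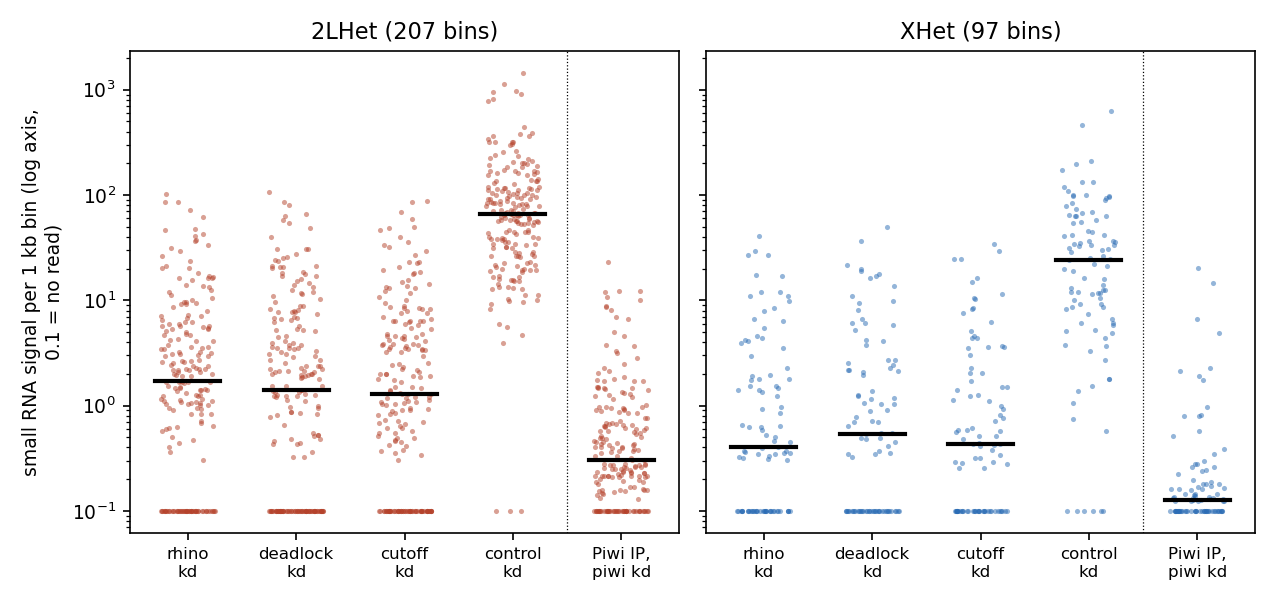
Small RNA signal per kept 1 kb bin (y axis, log scale, 0.1 for a bin with no read) of 2LHet and XHet in rhino, deadlock, cutoff and control knockdown, and right of the dotted line in the Piwi pull-down of piwi knockdown. Points are bins and bars medians. On 2LHet the 3 knockdown medians of 1.69, 1.42 and 1.28 lie far below the control median of 65.9.

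Single bins high in control small RNA lost far more. Their loss is measured against that same control library, so its size is a description. Bin 60001 of 2LHet, the richest in small RNA, had a signal of 2.22 in rhino, 0.873 in deadlock and 1.20 in cutoff knockdown, against 1453 in control. Bin 161001 had 1.24, 1.35 and 0.1, the last being no read, against 1122 in control. The domain around it, at 158001 to 165000, was 376-fold lower in rhino (210 to 753), 419-fold in deadlock (221 to 917) and 589-fold in cutoff knockdown (310 to 1290), from 11, 9 and 9 reads against 3505 in control. The domain at 40001 to 62000 was 69.5-fold lower in rhino knockdown (57.1 to 85.5). The XHet domain was 29.5-fold lower in rhino (23.5 to 37.6), 22.0-fold in deadlock (17.9 to 27.4) and 37.4-fold in cutoff knockdown (29.8 to 47.6). The smallest loss among domains was at chr2LHet 310001 to 325000, 7.34-fold in rhino, 13.9-fold in deadlock and 8.20-fold in cutoff knockdown.

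The loss was uneven along the scaffolds. In blocks of 50 kb of 2LHet, small RNA in rhino knockdown was 3.84-fold lower in the first block and 107-fold, 55.4-fold and 42.4-fold lower in the next 3. It was 4.62-fold and 4.94-fold lower in the blocks between 200001 and 300000, and 18.2-fold and 36.3-fold lower in the last 2 blocks. The 9 bins at 247001 to 256000 held 660 of the 844 reads that rhino knockdown had between 200001 and 300000, and the other 43 bins there were 18.8-fold lower (16.2 to 21.9). On XHet the block 50001 to 100000 was not lower, with a fold of 0.882 (0.766 to 1.01), while the blocks beside it were 9.85-fold and 43.7-fold lower and the one ending at 200000 was 51.6-fold lower. The stretch at 65001 to 75000, described below, gave 341 of that first block's 472 reads in rhino knockdown and 196 of its 353 in control. Rhino over input had its lowest block median on 2LHet, 1.29, in the first block, and the next, 1.34, between 250001 and 300000. On XHet its median was 0.68 in the block 50001 to 100000, above only the 0.60 of the short last block. Over bins, control small RNA was higher where Rhino over input was higher, with a Spearman coefficient of 0.64 over 207 bins of 2LHet and 0.47 over 97 of XHet. Both measures are higher in bins of low mappability, by which both are scaled.

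Among bins with at least 10 control reads, 193 on 2LHet and 77 on XHet, most were lower and many had no read left. On 2LHet 39, 57 and 45 had no read in rhino, deadlock and cutoff knockdown, and on XHet 24, 28 and 24, where 13.3%, 17.4% and 13% of such bins in the table had none. The signal was no lower in 10, 9 and 8 bins of 2LHet and in 6, 6 and 6 of XHet, where 37.6%, 37.6% and 38% of such bins in the table were no lower. Bins within 2-fold of control in all 3 knockdowns numbered 11 on 2LHet and 3 on XHet, with 37.9% in the table.

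The authors' flag columns sort the same bins. The flag RD-SL covered 141 of 207 kept bins of 2LHet and 52 of 97 of XHet. The flag's letters are not spelled out in the sources used here. Its bins had a median small RNA change in rhino knockdown of -4.73 on 2LHet and -4.65 on XHet, against -2.03 and -0.93 in bins without it. Since the flag may rest on these libraries, that difference is a description. Bins in the published clusters of Brennecke et al numbered 74 on 2LHet and 21 on XHet, and 39.2% and 57.1% of them were Rhino-bound, against 44.4% and 7.89% of bins outside them.

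Pol II and nascent RNA were at scaffold level close to their control in rhino knockdown. The median Pol II change was 0.00 on 2LHet (-0.03 to 0.08) and -0.15 on XHet (-0.21 to -0.07). The ratio of summed Pol II reads was 1.25 on 2LHet (1.21 to 1.30) and 0.894 on XHet (0.860 to 0.929). On 2LHet 27 bins (13.0%) were higher by at least 2-fold and on XHet 5 (5.15%), where 1.29% of the table was. In GRO-seq both medians were 0. On 2LHet 60.4% of bins in rhino knockdown and 64.7% in control had no read. On XHet 43.3% and 47.4% had none, and 34 bins were higher and 34 lower. The ratio of summed GRO-seq reads was 1.17 on 2LHet (1.11 to 1.24) and 1.23 on XHet (1.15 to 1.31). Without the 2LHet stretch at 247001 to 256000, described below, the 2LHet ratios were 1.12 for Pol II (1.08 to 1.16) and 1.04 for GRO-seq (0.98 to 1.10). The arms had ratios of 1.08 and 1.01.

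RNA-seq is the assay with 2 separate control libraries, so knockdown values could be set against each of the 2 controls. The mean signal of 2LHet was 2.42 in rhino, 2.11 in deadlock and 1.05 in cutoff knockdown, against 0.427 and 0.703 in control (0.565 ± 0.195, SD, n = 2). That of XHet was 2.25, 2.43 and 2.56, against 2.43 and 2.72 in control (2.57 ± 0.205, SD, n = 2). Over all kept bins, the means of all 3 knockdown libraries lay above both controls on 2LHet, while the groups overlapped on XHet. The log2 difference of the means was 1.67 on 2LHet and -0.09 on XHet, with exact two-sided permutation p-values of 0.2 and 0.4, where 0.2 is the smallest that 3 against 2 libraries can give. Without the stretch at 247001 to 256000 the 2LHet difference was 0.40, with p = 0.6 in the same exact test. The stretch was chosen by higher RNA-seq signal in all 3 knockdowns, so leaving it out had to lower the difference. The drop is therefore a description. The XHet means rest on the stretch at 65001 to 75000, with 93.8% of the kept XHet reads in rhino, 92.2% in deadlock and 96.3% in cutoff knockdown, against 94.0% and 92.8% in control. Medians over bins were lower in the knockdowns on both scaffolds, which on 2LHet was opposite to the means. The median 2LHet bin had 0.0988 in rhino, 0.0807 in deadlock and 0.0389 in cutoff knockdown, against 0.113 and 0.153 in control. The median XHet bin had 0.0390, 0.0326 and 0.0282 in the same knockdowns, against 0.122 and 0.178 in control. On both scaffolds these knockdown medians lay below both controls, with no overlap. The same held on 3LHet, at 0.0514, 0.0419 and 0.0367 against 0.189 and 0.200 in control. It also held on 3RHet, at 0.111, 0.0796 and 0.0676 against 0.118 and 0.123. The medians of the arms overlapped, at 0.0382, 0.0411 and 0.0336 against 0.0371 and 0.0651 in control. Many bins were at the floor, and on 2LHet between 27.1% and 41.1% had no read in these libraries. Nothing in the labels says whether the 2 control libraries came from separate animals, so their spread may be technical.

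Most bins moved little, and more lay below the controls than above them. On 2LHet 65 bins (31.4%) and on XHet 38 bins (39.2%) had less RNA-seq signal than both controls in all 3 knockdowns, where 20.1% of the table had. Above both controls were 38 bins of 2LHet (18.4%) and 7 of XHet (7.22%), where 7.96% of the table were. At least 2-fold above both controls were 12 bins of 2LHet (5.80%) and 2 of XHet (2.06%), where 0.276% of the table were. At least 2-fold below were 3 and 1, where 0.132% of the table were.

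With limma over all 66222 bins with a mean RNA-seq signal of at least 0.1, the 3 knockdowns together against the 2 controls gave 10 called bins of 156 tested on 2LHet and 3 of 61 on XHet at an adjusted p under 0.05, where 0.716% of all bins tested were called. On 2LHet 7 were higher and on XHet 2, with 0.35% of the table, and 3 and 1 were lower, with 0.365% of the table. Called higher were bins 198001, 199001, 247001, 251001, 253001, 254001 and 296001 of 2LHet and 16001 and 35001 of XHet. Called lower were 57001, 131001 and 133001 of 2LHet and 32001 of XHet. In 3 of the 4 lower bins the calls rest on few reads, 0 in every knockdown against 5 and 3 in the controls in 57001, 6 and 1 in 131001 and 5 and 2 in 32001 of XHet, at a mappability index of at most 0.043. Bin 133001 of 2LHet, with 45 and 19 control reads, had 0.01, 0.145 and 0.0355 in rhino, deadlock and cutoff knockdown, against 1.77 and 2.28 in control (log2 change -1.50 ± 0.164, SE, limma adjusted p = 0.0237).

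Calls rest on few libraries. The fit took the 3 libraries of different knockdowns as replicates of 1 class. Differences among them counted as error, together with the spread of the 2 controls. The SE and adjusted p-values of single bins thus do not measure the spread of controls alone. The counts became 0 on both scaffolds without the rhino or the deadlock knockdown library, with 0.00151% and 0.0181% of the table, and 2 and 0 without cutoff, with 0.0332%. They became 55 and 24 without control replicate 1, where 39.8% of the table was called, and 15 and 2 without control replicate 2, with 1.37%. Each knockdown taken alone against the controls gave no called bin in limma (0% of the table), while 43, 40 and 19 bins of 2LHet and 4, 10 and 3 of XHet had an unadjusted p under 0.05 in rhino, deadlock and cutoff knockdown, where 3.01%, 3.26% and 2.14% of the table had.

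The 2LHet stretch at 247001 to 256000 had the largest gain in RNA-seq signal of either scaffold. It held 9 kept bins, no exon bin, and was 1 of 12 such runs in the whole table, of at least 5 bins that stood at least 2-fold above both controls in all 3 knockdowns. Its mean RNA-seq signal was 31.1 in rhino, 35.0 in deadlock and 11.5 in cutoff knockdown, against 0.398 and 0.503 in control. Rhino knockdown gave 8595 reads, deadlock knockdown 5040 and cutoff knockdown 4144, against 75 and 40 in control. These were 62.1%, 66.7% and 48.7% of all RNA-seq reads in kept 2LHet bins, against 2.18% and 2.51% in control. The peak bin, 254001, had 86.2, 99.5 and 33.8, against 0.482 and 0.01 in control (log2 change 5.78 ± 0.479, SE, limma adjusted p = 0.0137). The bin at the other end, 247001, had 20.9, 28.2 and 9.34, against 0.134 and 0.01 in control (log2 change 4.13 ± 0.448, SE, limma adjusted p = 0.0237). The 5 bins of the stretch that were not called had adjusted p-values between 0.0562 and 0.0903 in limma.

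Assays that did not choose the stretch moved there as well. GRO-seq averaged 17.1 in rhino knockdown and 0.188 in control, from 306 and 4 reads, a ratio of 81.2 (31.4 to 300.0). Pol II averaged 17.3 in rhino knockdown and 3.41 in control, from 879 and 206 reads, a ratio of 5.34 (4.58 to 6.24). Both were higher in all 9 bins by at least 2-fold. H3K9me3 was not lost, with a mean of 53.4 in rhino knockdown and 38.8 in piwi knockdown, against 36.3 in control. Pol II higher by at least 2-fold reached past the stretch, over 17 of the 18 kept bins at 238001 to 259000, and higher GRO-seq over 15 of 16 at 245001 to 261000.

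Small RNA of the stretch as a whole was near its control level or above it, unlike that of the rest of the scaffold. Its mean signal was 40.6 in rhino, 58.4 in deadlock and 26.7 in cutoff knockdown, against 50.9 in control. Scaled to the library totals, the reads of knockdown over control were 1.18 in rhino (1.05 to 1.33), 1.89 in deadlock (1.69 to 2.11) and 0.845 in cutoff knockdown (0.748 to 0.956). In the other 198 kept bins of 2LHet these ratios were 0.0592, 0.0503 and 0.0569. The 9 bins gave 25.5% of all small RNA reads of kept 2LHet bins in rhino, 39.0% in deadlock and 20.2% in cutoff knockdown, against 1.68% in control. The bins went both ways. In rhino knockdown 4 were higher and 5 lower, with changes between -2.72 and 2.10. In deadlock knockdown 5 were higher and 4 lower (-1.23 to 2.94), and in cutoff knockdown 3 were higher and 6 lower (-2.81 to 1.58). The medians of the 9 bins were -0.53, 0.01 and -0.52, against -4.51, -4.55 and -4.59 in the other 198. Piwi-bound small RNA of piwi knockdown was low there, at a mean of 0.480.

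Rhino was present in the stretch in control ovaries without being strong. Its mean signal was 15.2 in rhino, 9.95 in deadlock, 13.3 in cutoff and 15.6 in piwi knockdown, against 25.0 in control. The median of control Rhino over input was 1.63 there and 1.85 in the other 198 bins.

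**Figure D4:**
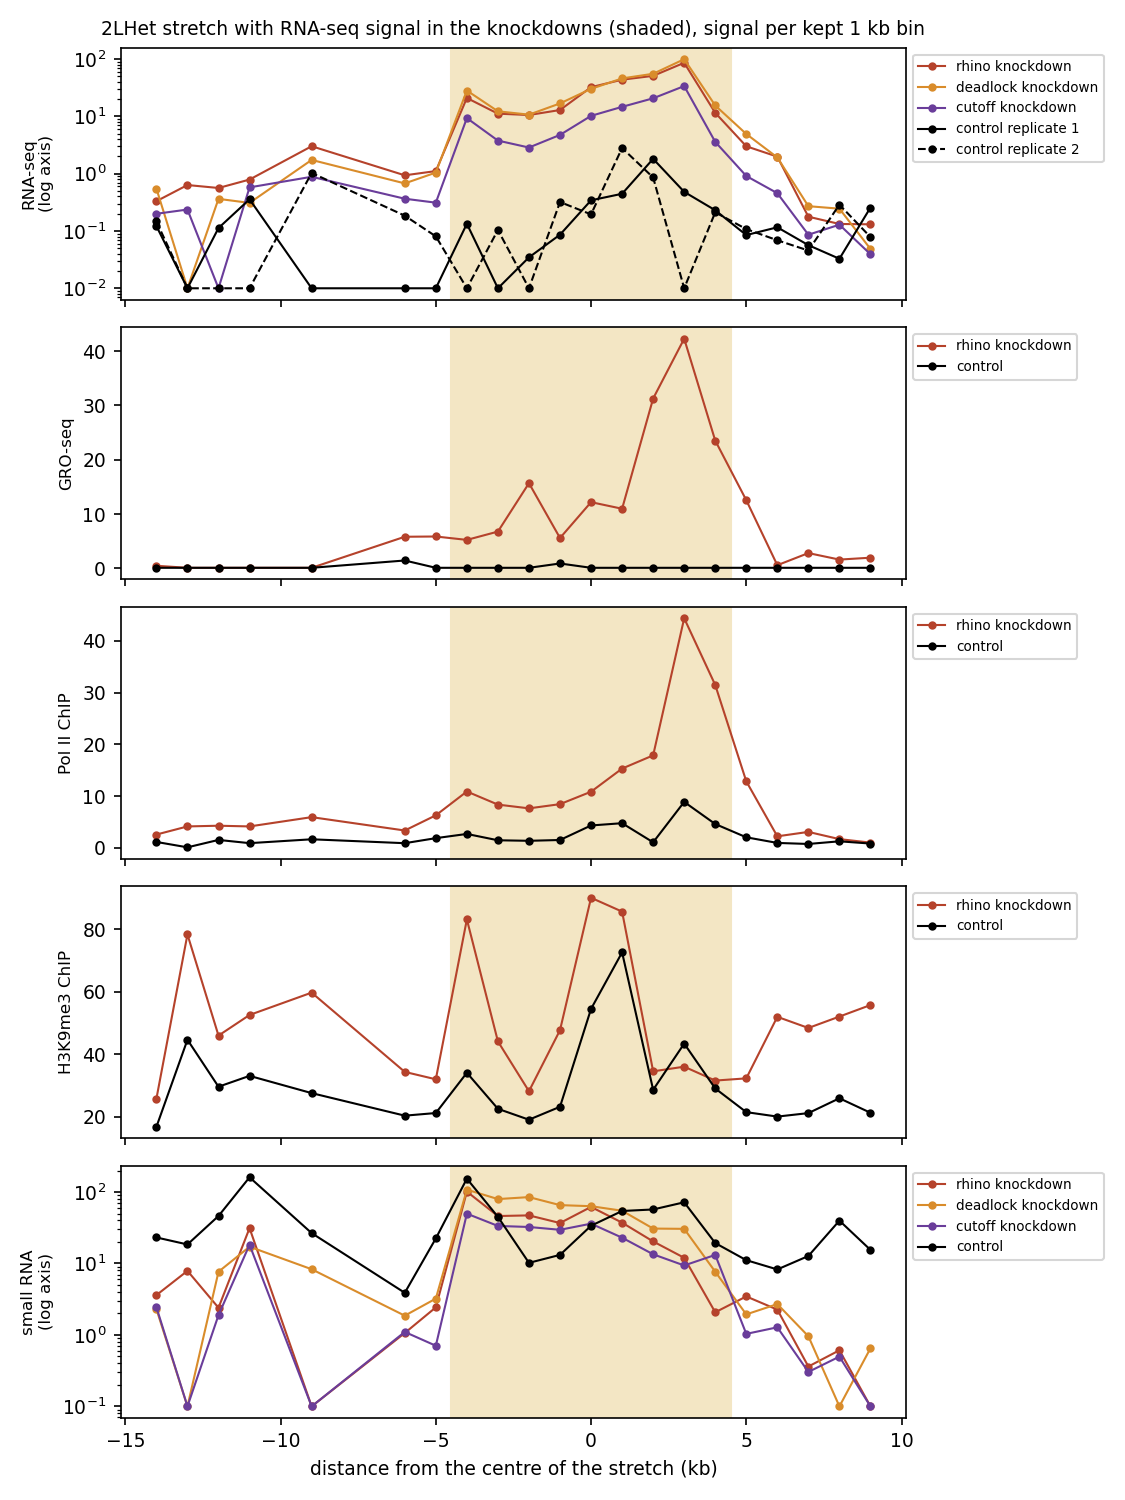
Signal per kept 1 kb bin (y axes; log scale for RNA-seq and small RNA) against the distance from the centre of the 2LHet stretch (x axis, kb), with the stretch shaded. In the 9 shaded bins RNA-seq averages 31.1, 35.0 and 11.5 in rhino, deadlock and cutoff knockdown against 0.398 and 0.503 in the controls, and GRO-seq and Pol II of rhino knockdown lie above control in each bin.

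A smaller gain lay at chr2LHet 198001 to 203000, a run selected with its values in view. Bin 199001 had an RNA-seq signal of 6.62 in rhino, 8.94 in deadlock and 6.33 in cutoff knockdown, against 0.01 and 0.151 in control (log2 change 2.93 ± 0.264, SE, limma adjusted p = 0.0165). All 5 bins of the run were above both controls in all 3 knockdowns, with values between 0.761 and 8.94 in the knockdowns and at most 0.461 in the controls. Unlike the larger stretch, bin 199001 had no GRO-seq read in rhino knockdown or control, and its small RNA was 9.44, 12.6 and 6.57, against 184 in control. On XHet, bin 16001 had an RNA-seq signal of 2.80, 2.73 and 2.74 in rhino, deadlock and cutoff knockdown, against 0.311 and 0.316 in control (log2 change 1.52 ± 0.214, SE, limma adjusted p = 0.0468). The same bin had the highest H3K9me3 over input of XHet, with a signal of 24.3 in rhino knockdown and 41.6 in piwi knockdown, against 45.2 in control.

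Each scaffold also held a stretch that was transcribed in control and stayed so in the knockdowns, both selected with their values in view. The one on 2LHet, at 22001 to 38000, had GRO-seq of at least 10 in both libraries in 14 of 15 kept bins. GRO-seq averaged 22.6 in rhino knockdown and 23.9 in control, and Pol II 15.1 in rhino knockdown and 13.2 in control. RNA-seq averaged 2.03 in rhino, 1.77 in deadlock and 1.45 in cutoff knockdown, against 1.79 and 2.45 in control. Small RNA averaged 16.8, 15.8 and 17.6, against 26.9 in control, so that it was lower by less than 2-fold. These bins were among the few with Piwi-bound small RNA of piwi knockdown, at a mean of 7.11. The run at 23001 to 43000, which overlaps them, gave 3327 of the 4436 Piwi-bound reads in kept bins of 2LHet.

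On XHet the stretch at 65001 to 75000 had more steady-state RNA. Its 9 kept bins averaged an RNA-seq signal of 20.5 in rhino, 20.2 in deadlock and 24.6 in cutoff knockdown, against 23.5 and 25.7 in control, and bin 68001, the highest, had 58.9, 56.8 and 75.3, against 64.8 and 88.1 in control. Pol II averaged 17.2 in rhino knockdown and 19.6 in control, and GRO-seq 15.5 and 18.4. The knockdown and control values of these assays lay close together. Small RNA was higher there, with a mean of 11.1 in rhino, 11.4 in deadlock and 10.8 in cutoff knockdown, against 6.62 in control. The ratios of reads were 1.48 (1.23 to 1.77), 1.41 (1.17 to 1.69) and 1.52 (1.28 to 1.81). Piwi-bound small RNA of piwi knockdown averaged 5.30.

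The authors' flag SO-SL covered 8 kept bins of 2LHet and 2 of XHet, none of them Rhino-bound. Their median Piwi-bound small RNA was 8.77 on 2LHet and 17.4 on XHet, and their small RNA changed in rhino knockdown by a median of -0.34 and 0.70. The letters of this flag are not spelled out either, and it may rest on these libraries, so the values are a description. Over the scaffolds as wholes Piwi-bound small RNA was scarce. It made up 0.0105% of its library on 2LHet and 0.00336% on XHet, and its median signal per bin was 0.307 and 0.128.

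Nascent and steady-state RNA parted on XHet. The run at 184001 to 199000, selected with its values in view, had a mean GRO-seq signal of 154 in rhino knockdown and 121 in control, the highest of either scaffold. Its mean Pol II was 1.30 in rhino knockdown and 1.43 in control, and its mean RNA-seq 0.504 in rhino, 0.611 in deadlock and 0.316 in cutoff knockdown, against 0.280 and 1.49 in control. Thus neither Pol II nor RNA-seq was high where GRO-seq was. Of its 14 members 8 were set aside for low input, and the mappability index was between 0.026 and 0.483. The run gave 2122 GRO-seq reads in rhino knockdown and 1816 in control, of 3730 and 3360 in all XHet members. Among its kept bins, 198001 had an input of 139, a GRO-seq signal of 463 in rhino knockdown and 179 in control, and a small RNA signal of 10.9, 6.04 and 11.4 in rhino, deadlock and cutoff knockdown, against 467 in control. Its Rhino signal was 318, 281, 268 and 254 in rhino, deadlock, cutoff and piwi knockdown, against 332 in control. GRO-seq differed more between the libraries at chrXHet 41001 to 47000, where it averaged 9.26 in rhino knockdown and 0.387 in control, from 147 and 10 reads, a ratio of 15.6 (8.25 to 33.2). Pol II there was 3.92 in rhino knockdown and 3.01 in control, and Rhino 2.27 in rhino knockdown and 13.7 in control. RNA-seq averaged 0.321 in rhino, 0.578 in deadlock and 0.207 in cutoff knockdown, against 0.121 and 0.178 in control. Small RNA gave 41 reads in rhino knockdown and 372 in control.

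**Figure D5:**
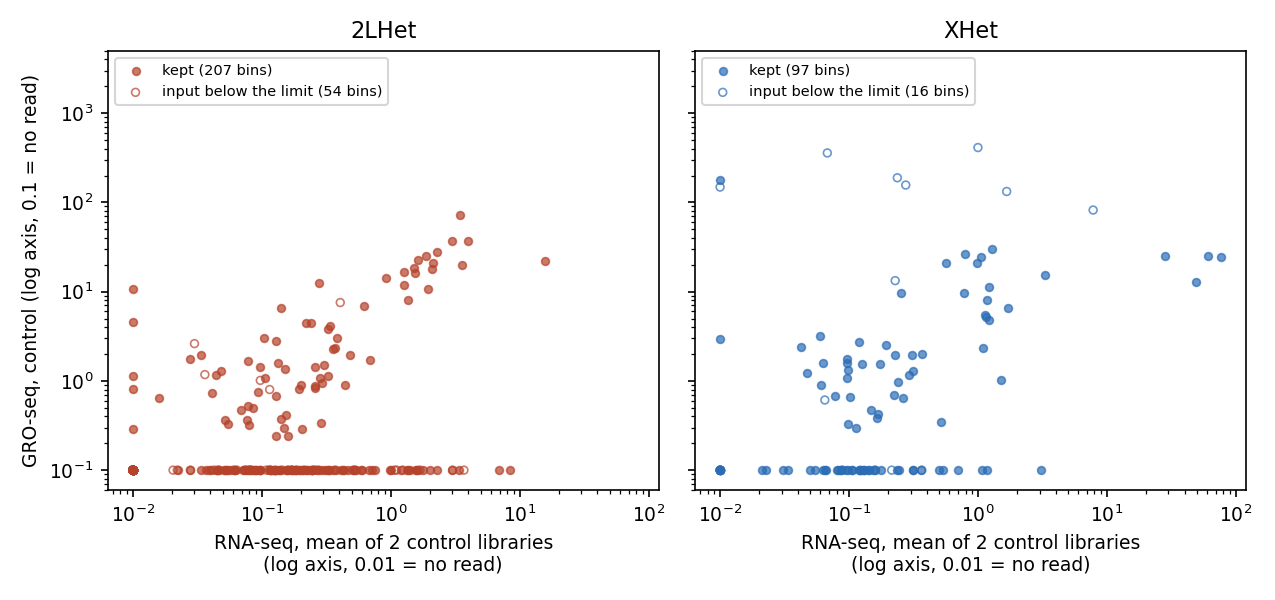
GRO-seq signal (y axis, log scale, 0.1 for a bin with no read) against the mean RNA-seq signal of the 2 control libraries (x axis, log scale, 0.01 for no read) in control ovaries, per member bin of 2LHet and XHet. Filled points are kept bins and open points bins with input below the limit. The XHet bins with the highest GRO-seq have RNA-seq signals below the 23.5 and 25.7 of the XHet stretch at 65001 to 75000.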

How the data were processed

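The deposited table gives, per 1 kb bin of dm3, 1 signal value for each assay and group, with mappability index and flags. Per the submitters' processing notes, the build was dm3 and the software bedtools 2.16.1, SAMtools 0.1.16, GSNAP, cutadapt 1.0 and Bowtie 0.12.7, listed with no role. By their values, the deposited signal is reads scaled to a library total (RPM) over the mappability index plus an offset. In 21 single-library columns 100% of values under 500 reads were whole reads within 0.1 read. The other 6 columns are the authors' averages of 2 libraries, and 1 measured column was not used. Of 36 libraries 33 entered. Capped RNA and H3K4me2 were not analysed here. Strands are not separated in the table.

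Bins with input under 25% of the median were left out. Changes are differences of log2(value + 1). Medians have distribution-free 95% intervals over bins, and read ratios have Clopper-Pearson intervals, for counting error only. RNA-seq used limma 3.58.1 in R 4.3.3 with a variance trend on log2(value + 1) and Benjamini-Hochberg adjustment over 66222 bins, and exact permutation of 5 library means. Scripts ran in Python 3.11.15 and were tested on simulated data. Alternatives changed the pseudocount, the input, mean and mappability filters, the scaling and the libraries. Named bins are the 3 highest per scaffold in Rhino, H3K9me3 and Pol II over input, in small RNA, Piwi-bound small RNA, RNA-seq and GRO-seq, and called bins. Members, domains and rules were chosen with earlier results of these data known.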

Additional observations from a re-analysis of the deposited data

How the results depend on the processing

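Of 246 medians recomputed under other settings, 176 stayed within the 95% interval of the reported median, 70 moved outside it and 0 of those whose interval excludes 0 changed sign. Every median stayed inside that interval without the input filter, with small RNA rescaled to equal flamenco signal, and without the 2LHet stretch at 247001 to 256000, an alternative added after seeing the data. The causes of the moves were not tested.

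With a pseudocount of 0.1, the 2LHet medians were 2.02 for Rhino and 2.58 for H3K9me3 over input, -5.29, -5.41 and -5.19 for small RNA and -0.078, -0.26 and -0.40 for RNA-seq in rhino, deadlock and cutoff knockdown. On XHet they were -0.22 for Pol II, -4.69, -4.98 and -5.18 for small RNA and -0.41, -0.46 and -0.63 for RNA-seq. With a pseudocount of 5, the 2LHet medians were 1.29 and 1.79 over input, -1.16, -1.30, -0.72 and -0.45 for Rhino in rhino, deadlock, cutoff and piwi knockdown, -3.11, -3.19 and -3.20 for small RNA and -0.017 for RNA-seq in cutoff knockdown. On XHet they were 0.90 and 1.07 over input, -1.02 for Rhino in deadlock knockdown, -0.053 for Pol II, -2.29, -2.06 and -2.12 for small RNA, and -0.020, -0.024 and -0.025 for RNA-seq.

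Rescaling to equal medians over the euchromatic arms takes out the arms medians, which were -0.21 for Rhino and -0.82 for H3K9me3 over input. The 2LHet medians became 2.06 and 3.36 over input, -1.09 and -0.45 for Rhino in cutoff and piwi knockdown, -0.22 and -0.028 for H3K9me3 in rhino and piwi knockdown, 0.11 for Pol II, -0.0057 for GRO-seq, and 0.0031 and -0.036 for RNA-seq in rhino and cutoff knockdown. Those of XHet became 1.49 and 2.46 over input, -1.07 for Rhino in cutoff knockdown, -0.090 for H3K9me3 in rhino knockdown, -0.046 for Pol II, -0.0057 for GRO-seq and -0.038, -0.060 and -0.069 for RNA-seq. Keeping bins with a mappability index of at least 0.5 gave 2LHet 1.43 and 2.21 over input, -1.51 and -0.69 for Rhino in deadlock and cutoff knockdown, -3.75, -4.01 and -3.83 for small RNA, and -0.069 and -0.13 for RNA-seq in rhino and cutoff knockdown. An input limit of 50% of the median gave 2LHet 1.64 and 2.28 over input and -0.067 for Cutoff over its own knockdown, and XHet 1.04 for Rhino over input and -0.57 for Rhino in cutoff knockdown.

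The count of Rhino-bound bins, 88 on 2LHet and 18 on XHet, became 184 and 62 at 2-fold, 15 and 0 at 8-fold, 11 and 5 with a mappability index of at least 0.5, and 42 and 7 with a pseudocount of 5. The limma calls, 10 and 3, became 18 on 2LHet with a pseudocount of 0.1, 2 and 1 with a pseudocount of 5, 0 and 0 with each knockdown as a group of its own or without the filter on the mean, and 2 and 0 with voom weights on the recovered reads, a setting added after seeing the data. The called share of the table, reported as 0.716%, was 1.39%, 0.257%, 0%, 0.0136% and 0.67% in these settings. At an unadjusted p under 0.05 limma gave 59 and 14 bins with 12.5% of the table, 49 and 10 with own groups (4.31%) and 69 and 35 without the filter (9.98%). Leaving out 1 library at a time gave between 0 and 55 calls on 2LHet and between 0 and 24 on XHet. Without 1 or the other control library, a lone control then taken to vary like the knockdowns, the RNA-seq median in cutoff knockdown was between -0.065 and -0.039 on 2LHet and that in deadlock knockdown between -0.10 and -0.077 on XHet. With 1 library left out, the log2 difference of RNA-seq means lay between 1.31 and 2.04 on 2LHet and between -0.17 and -0.01 on XHet. With a mappability index of at least 0.5 and all libraries it was 0.76 on 2LHet and -0.21 on XHet.

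The planned edgeR and DESeq2 fits were not run. No paired analysis was possible because the 3 RNA-seq knockdowns have 1 library each and the other replicated groups come as averages. Most 2LHet bins have a mappability index under 0.5, so few reads stand behind many of their values, and GRO-seq had no read in over 60% of control bins there.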
